A study of Mus musculus with 59 samples.

Results

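The 9 genes described here, Grhl1, Grhl2, Grhl3, Cdh1, Cdh2, Epcam, Esrp1, Cldn6 and Cldn7, were taken by symbol from tables of 24391 genes, and all 9 were present in each of the 59 RNA-seq libraries. Libraries came from 6 conditional mouse embryonic stem cell (ESC) lines, kept as ESCs with LIF and 3 kinase inhibitors on mouse embryonic fibroblast (MEF) feeders, or grown for 2 days without them in low attachment dishes as embryoid bodies (EBs). All lines carried ERT2-Cre, which 4-hydroxytamoxifen (4-OHT) activates, and in each line untreated controls were compared with 4-OHT treated mutants at both stages. In the Pcgf1 line (19 libraries: 4 control ESC and 5 of each other group) controls were Pcgf1 f/f and mutants Pcgf1 delta/delta, termed Pcgf1-KO, and deletion was induced before EB formation. In the Ring1 point mutant line (8 libraries, 2 per group) controls and mutants shared Ring1a pm/pm, and 4-OHT turned Ring1b into its point mutant form, so that the controls were not wild type. The remaining lines, with 8 libraries each, were floxed for Ring1b on a Ring1a-/- background shared by its controls (Ring1A/B line), for Pcgf2 and Pcgf4, for Pcgf3 and Pcgf5, or for Pcgf6. The labels give 1 line per genotype, and nothing in them says whether replicates were separate cultures, so that p-values measure only the spread between libraries, which may be technical.

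Grainyhead-like proteins are transcription factors of epithelia. GRHL2 binds enhancers of genes for cell adhesion and is known as a factor of epithelial identity in the epiblast, where pluripotent cells leave the naive state as an epithelium. E-cadherin (Cdh1) and Epcam link epithelial cells, claudins seal the tight junctions between them, and ESRP1 directs the epithelial forms of spliced transcripts, whereas N-cadherin (Cdh2) marks cells that have lost this state. RING1A and RING1B are the catalytic subunits of the Polycomb complex PRC1, which ubiquitinates histone H2A at its target genes, and PCGF proteins define its subtypes.

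Of the 9 genes, 5 had a start region in the RefSeq promoter table (GRCm38.p6, 300 bases each, 7 entries). Shown are those of the Grainyhead genes and of the junction genes that differed between control EBs and ESCs of the Pcgf1 line without a block. CACCTG, an E-box bound by SNAI and ZEB repressors, is in capitals on either strand (reverse complement CAGGTG). Other forms of the E-box were not searched. The palindromic Grainyhead consensus AACCGGTT was searched too. It was in 0 of these 7 entries and in 48 (0.146%) of all 32851 promoters, whereas CACCTG was in 4 of the 7 and in 20.2% of all. No entry held both motifs, so that they did not overlap, and a match is a description of these windows only.
Grhl1, the first of its 2 entries, chr12:24572037-24572336, plus strand: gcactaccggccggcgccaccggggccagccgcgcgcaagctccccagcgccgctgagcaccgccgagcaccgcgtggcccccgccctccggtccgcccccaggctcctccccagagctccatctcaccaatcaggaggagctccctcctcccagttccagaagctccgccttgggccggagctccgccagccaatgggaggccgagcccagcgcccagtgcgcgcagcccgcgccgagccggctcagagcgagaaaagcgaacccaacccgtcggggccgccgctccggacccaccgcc
Grhl3, chr4:135573583-135573882, minus strand: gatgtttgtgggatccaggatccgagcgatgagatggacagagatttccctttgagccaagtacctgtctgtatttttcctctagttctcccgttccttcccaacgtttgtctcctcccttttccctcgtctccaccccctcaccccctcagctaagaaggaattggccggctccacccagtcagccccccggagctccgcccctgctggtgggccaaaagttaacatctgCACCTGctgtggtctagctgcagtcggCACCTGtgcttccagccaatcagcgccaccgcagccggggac
Epcam, chr17:87635729-87636028, plus strand: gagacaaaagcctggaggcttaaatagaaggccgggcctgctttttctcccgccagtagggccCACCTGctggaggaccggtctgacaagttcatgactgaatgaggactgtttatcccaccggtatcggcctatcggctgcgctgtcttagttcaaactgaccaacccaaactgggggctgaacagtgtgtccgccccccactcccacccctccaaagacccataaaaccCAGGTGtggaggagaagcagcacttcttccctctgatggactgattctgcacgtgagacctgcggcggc
Cldn6, chr17:23679115-23679414, plus strand: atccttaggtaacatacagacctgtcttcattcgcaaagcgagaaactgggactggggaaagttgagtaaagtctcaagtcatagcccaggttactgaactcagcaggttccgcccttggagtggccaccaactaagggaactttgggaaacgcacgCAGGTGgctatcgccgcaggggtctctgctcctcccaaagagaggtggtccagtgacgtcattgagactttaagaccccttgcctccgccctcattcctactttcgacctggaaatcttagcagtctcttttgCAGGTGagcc
Of the entries shown, those of Grhl3, Epcam and Cldn6 each held 2 matches to CACCTG. The first Grhl1 entry held none and was the richest of them in bases G and C. It was at 75.3%, against 58.3% in Grhl3, 57.0% in Epcam and 52.3% in Cldn6. The second Grhl1 entry, not shown, held no CACCTG and was at 51.3%. Of the Cldn7 entries, not shown either, the first held no CACCTG (52.0% G and C) and the second held 2 (62.3%). In the NCBIM37 (mm9) annotation, the build used for the files, Grhl1 lies on chromosome 12 (25257152 to 25302256, plus strand), Grhl2 on chromosome 15 (37162791 to 37293324, plus), Grhl3 and Esrp1 on chromosome 4 (135097803 to 135129545 and 11259080 to 11313930, both minus), Cdh1 on chromosome 8 (109127251 to 109194146, plus), Epcam and Cldn6 on chromosome 17 (88035319 to 88050446 and 23816332 to 23819413, both plus) and Cldn7 on chromosome 11 (69778281 to 69781387, plus). Grhl2 overlaps 1 gene model on its own strand and 2 on the other. Cdh2 and Esrp1 each overlap 1 model on the other strand. The kit is not stated to keep strand, so reads of these overlapping models cannot be told apart. The other 6 genes overlap no other gene model.

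In 4 lines (Pcgf6, Pcgf3/5, Pcgf2/4 and Ring1A/B) the table deposited for a library is named for another condition than its label in 21 of 32 cases. Groups follow the labels throughout. Calls by label in these 4 lines are given last, as values only, and no effect of stage or genotype is read from them. In them, Klf4, a factor of naive ESCs, and Fgf5, a marker of the formative epiblast, spanned overlapping ranges in libraries labelled ESC and EB, with Fgf5 at 0 to 35.2 TPM in the 16 labelled ESC and at 0 to 46.3 TPM in the 16 labelled EB. By the deposited names they were separate, with Fgf5 at 0 to 0.816 TPM under ESC names and 7.53 to 46.3 TPM under EB names. Label and name agreed for all 27 libraries of the Pcgf1 and Ring1 point mutant lines, which hold the comparisons below. In the Pcgf1 line Pcgf1 itself was at 7.30 to 16.6 TPM in the 9 control libraries and at 0.627 to 2.77 TPM in the 10 Pcgf1-KO libraries. Klf4 fell and Fgf5 rose in its control EBs, and control ESCs held 126 to 218 TPM of Col1a1, a collagen of fibroblasts, against 3.74 to 9.25 TPM in control EBs. Values are TPM that sum to 1000000 in each library, with 15252 to 18352 genes above 0. Their depth is unknown. In bulk samples fewer cells of a type and less RNA per cell cannot be told apart.

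The Grainyhead genes exchanged rank between ESCs and EBs of the Pcgf1 line. Grhl2 and Grhl1 rose and Grhl3 fell, in controls and in Pcgf1-KO alike in direction. Grhl2 was at 3.48, 5.49, 4.36 and 3.41 TPM in control ESCs (replicates 1 to 4) and at 25.3, 57.4, 45.3, 27.2 and 23.9 TPM in control EBs (replicates 1 to 5). The groups did not overlap, and the log2 fold change was 3.00 ± 0.37 (SE, 8.01-fold on the log2(TPM + 0.1) scale, adjusted p = 9.60e-06, limma over 20594 genes). In Pcgf1-KO libraries Grhl2 was at 3.39, 6.17, 6.76, 2.90 and 3.42 TPM in ESCs and at 26, 65.5, 64.9, 25.5 and 25.4 TPM in EBs, a log2 fold change of 3.09 ± 0.34 (adjusted p = 4.17e-06). Ordered by mean ± SD, Grhl2 stood at 41.4 ± 21.7 TPM in Pcgf1-KO EBs (n = 5), 35.8 ± 14.8 TPM in control EBs (n = 5), 4.53 ± 1.79 TPM in Pcgf1-KO ESCs (n = 5) and 4.19 ± 0.972 TPM in control ESCs (n = 4). Within each stage the neighbours in this order did not differ beyond their spread.

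**Figure D1:**
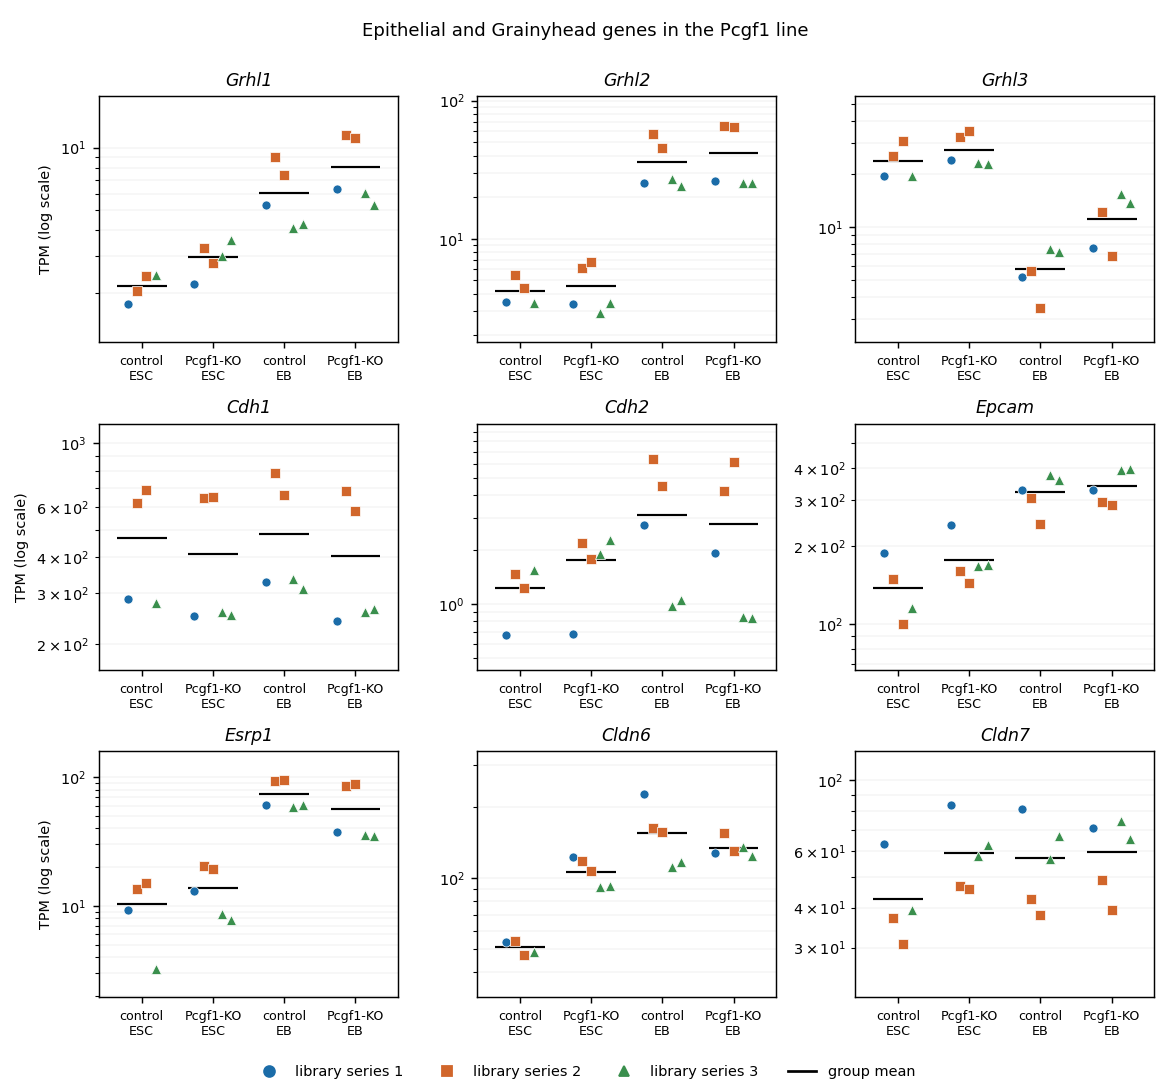
TPM (log axis) of the 9 genes in each library of the Pcgf1 line, by group, with lines at group means. Marker shapes give 3 library series, inferred here from the prefix of the library identifier in the column headers. Grhl2, Grhl1, Esrp1, Epcam and Cldn6 lie higher and Grhl3 lower in control EBs than in control ESCs with no overlap. The share of all genes that separate in this way was not computed. Cdh1 splits by library series in every group.

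The opposite shift was seen for Grhl3, a factor of skin barrier formation. It was at 19.5, 25.2, 30.6 and 19.4 TPM in control ESCs and at 5.19, 5.63, 3.47, 7.54 and 7.18 TPM in control EBs. Every EB library was below every ESC library (log2 fold change -2.03 ± 0.27, adjusted p = 2.37e-05). In Pcgf1-KO cells Grhl3 was at 24.1, 32.4, 35.1, 23.0 and 22.8 TPM in ESCs and at 7.57, 12.2, 6.85, 15.5 and 13.7 TPM in EBs, a log2 fold change of -1.34 ± 0.25 (adjusted p = 0.000933). The fall left more Grhl3 in Pcgf1-KO EBs than in control EBs, by 0.91 ± 0.25 (log2), which missed the threshold (adjusted p = 0.0763) and whose groups overlapped. The difference was between 0.54 and 1.03 in each of the 3 library series, and its adjusted p was 0.0264 when replicate numbers were fitted as a block. Without Pcgf1-KO EB replicate 3, the lowest of its group, the difference was 1.07 (adjusted p = 0.0327). Stage markers moved beside it, in a comparison with 1.95% of all genes called. The 5 naive markers summed to 139 to 276 TPM in control EBs but 255 to 668 TPM in Pcgf1-KO EBs (1 called higher, all 5 at an unadjusted p under 0.05, median 1.26). The 4 formative markers summed to 1029 to 2950 TPM in the former and 323 to 1753 TPM in the latter (0 called, 2 at an unadjusted p under 0.05, median -1.09), and 3 of 6 primitive endoderm markers were called higher, their sums being 7.04 to 18.5 and 9.01 to 24.3 TPM. The part of these states in the values of Grhl3 was not tested.

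Grhl1 was the lowest of the Grainyhead genes in control ESCs, at 1.77, 2.04, 2.41 and 2.44 TPM. In Pcgf1-KO ESCs it was at 2.20, 3.27, 2.80, 3.00 and 3.57 TPM, in replicates 4 and 5 slightly above Grhl2. In control EBs it was at 5.31, 9.03, 7.39, 4.11 and 4.27 TPM, a rise of 1.38 ± 0.29 on the log2 scale (adjusted p = 0.00171), and in Pcgf1-KO EBs at 5.27 to 11.5 TPM, a rise of 1.35 ± 0.27 (adjusted p = 0.00170). The 3 genes together held 24.7 to 37.4 TPM in control ESCs, against 35.4 to 72.1 TPM in control EBs. Of this sum Grhl3 was 78.6% ± 2.4 (SD, n = 4) in control ESCs and 13.6% ± 6.5 (n = 5) in control EBs. Grhl2 was 14% ± 2.1 and 73.7% ± 6.0 of it. In every one of the 9 ESC libraries Grhl3 made up 76.5% or more of the sum, and in every one of the 10 EB libraries Grhl2 was the largest part, at 54.2% or more.

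**Figure D2:**
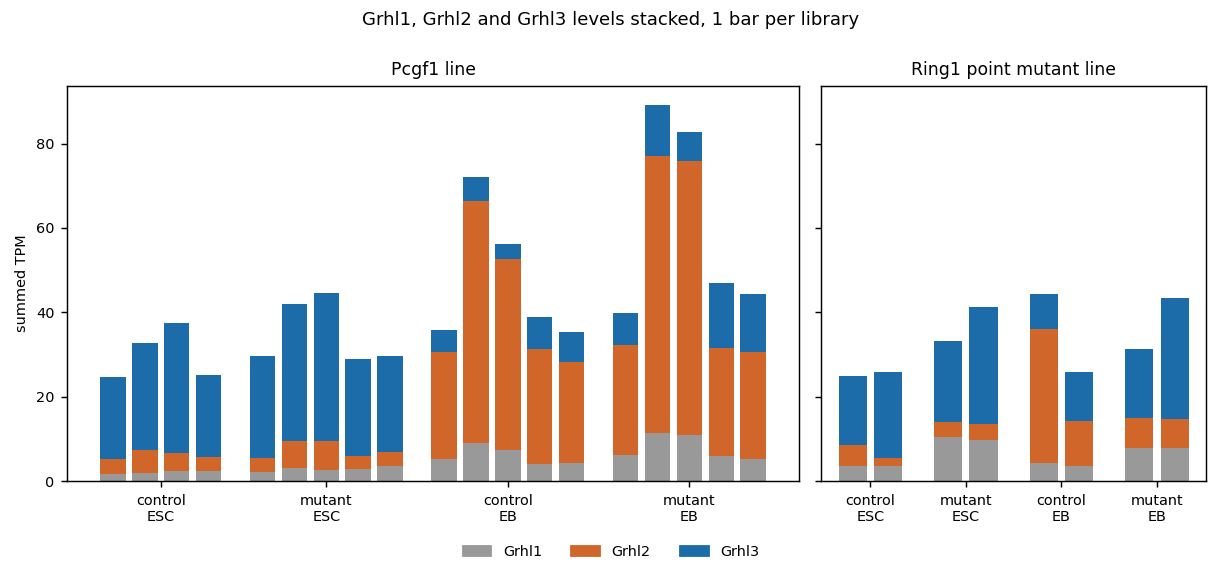
TPM of Grhl1, Grhl2 and Grhl3 stacked, with 1 bar per library, in the Pcgf1 line (left) and the Ring1 point mutant line (right). Grhl3 is the largest part of each bar in ESCs and Grhl2 in EBs of the Pcgf1 line. In the Ring1 point mutant line Grhl3 is the largest part in both mutant EB libraries. It is so in control EB replicate 2 as well, at 44.6% against 40.9% for Grhl2.

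Among the adhesion genes, Epcam rose in EBs. Cdh1 differed little between control ESCs and EBs, and passed only with the replicate number or the library series as a block. Epcam was at 188, 149, 99.7 and 115 TPM in control ESCs and at 329, 305, 244, 376 and 361 TPM in control EBs, with no overlap (log2 fold change 1.25 ± 0.19, adjusted p = 9.78e-05). In Pcgf1-KO cells it went from 240, 160, 144, 168 and 168 TPM to 330, 296, 289, 394 and 395 TPM (0.96 ± 0.18, adjusted p = 0.000877). Cdh1, the adhesion receptor that ESCs share with epithelia, was at 287, 622, 690 and 277 TPM in control ESCs and at 329, 787, 660, 336 and 311 TPM in control EBs. These ranges overlapped, and replicates 2 and 3, which form the second library series, were higher in every group. The fold change was 0.06 ± 0.44 (log2, adjusted p = 0.974). Within the 3 series it was between 0.14 and 0.22, and with the replicate block it was 0.19 (adjusted p = 0.0479).

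Cdh2 was low throughout, at 0.674, 1.46, 1.22 and 1.54 TPM in control ESCs and at 2.73, 6.36, 4.52, 0.973 and 1.05 TPM in control EBs. Its change, 0.99 ± 0.63 (log2), missed the threshold (adjusted p = 0.285). The direction differed between library series: Cdh2 was higher in EBs of the first and second series, by 1.87 and 1.93, and lower in those of the third, by -0.56. Pcgf1-KO cells gave the same split, with 1.37 and 1.33 in the first 2 series and -1.20 in the third. Feeder RNA moved with stage beside these values: the sum of 8 MEF markers lay between 193 and 278 TPM in control ESCs, 147 and 220 TPM in ESCs with Pcgf1-KO, 24.2 and 45.4 TPM in control EBs, and 7.62 and 14 TPM in EBs with Pcgf1-KO. Its part in the values of Cdh2 was not tested. Of these markers Dcn and Lum were under 1 TPM on average in control ESCs, and Dcn and Thy1 were higher in EBs.

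Esrp1, the epithelial splicing regulator, rose as far as Grhl2. It was at 9.24, 13.5, 15.2 and 3.23 TPM in control ESCs and at 60.3, 93.3, 95.4, 58.5 and 60.5 TPM in control EBs, which gave a log2 fold change of 3.00 ± 0.43 (8.02-fold, adjusted p = 4.76e-05). The lowest ESC library was the only one of the third series, in which the difference was 4.16, against 2.69 and 2.71 in the other series. In Pcgf1-KO cells Esrp1 was at 13, 20.3, 19.5, 8.68 and 7.76 TPM in ESCs and at 37.5, 85.8, 88.8, 35.6 and 35.1 TPM in EBs (1.99 ± 0.40, adjusted p = 0.00166). Within the 3 series Esrp1 was higher in Pcgf1-KO than in control ESCs, by 0.47 to 1.32, and lower in Pcgf1-KO than in control EBs, by -0.75 to -0.11. The interaction of genotype and stage (effect in EBs less the effect in ESCs) was -1.01 ± 0.59 on the log2 scale and missed the threshold (adjusted p = 0.986), and with the library series as a block it was -1.16 and passed (adjusted p = 0.0270).

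The claudins parted. Cldn6, a claudin of pluripotent and early embryonic epithelia, was at 53.9, 54.1, 47.5 and 49.0 TPM in control ESCs and at 226, 163, 157, 111 and 117 TPM in control EBs (1.55 ± 0.17, adjusted p = 3.01e-06). It was the 1 gene of the 9 that differed between Pcgf1-KO and control ESCs, at 122, 118, 107, 91.2 and 92.6 TPM in Pcgf1-KO, all above the controls (1.05 ± 0.17, 2.07-fold, adjusted p = 0.00745). The difference was 0.91 to 1.18 within the 3 library series. Without the libraries of the second series it was 0.98 with an adjusted p of 0.340. In Pcgf1-KO EBs Cldn6 was at 127, 155, 130, 135 and 123 TPM, within the range of control EBs, so that it rose by 0.34 ± 0.16 from Pcgf1-KO ESCs (adjusted p = 0.166, and 0.0278 with the replicate block). The interaction of genotype and stage was -1.21 ± 0.23 (adjusted p = 0.104), and -1.26 with the replicate block (adjusted p = 0.00327).

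Cldn7, a claudin of many mature epithelia, was at 63.4, 37.1, 30.9 and 39.4 TPM in control ESCs and at 81.3, 42.7, 37.8, 56.8 and 66.7 TPM in control EBs. The groups overlapped (0.42 ± 0.26, adjusted p = 0.285), while the difference was 0.25 to 0.64 within series and passed with the replicate block (0.37, adjusted p = 0.00649). Pcgf1-KO ESCs had 83.5, 46.8, 45.7, 58.1 and 62.6 TPM, a difference from control ESCs of 0.49 ± 0.26 (adjusted p = 0.667), which passed with the block (0.44, adjusted p = 0.0173). In Pcgf1-KO EBs Cldn7 was at 70.9, 48.7, 39.3, 74.4 and 65.3 TPM.

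Over the 9 genes, 5 rose and 1 fell in control EBs, against 11.5% of all genes higher, 13.4% lower and 24.9% called in either direction. In Pcgf1-KO EBs 4 rose and 1 fell, against 8.13% higher, 10.2% lower and 18.3% called. The median log2 fold change of the 9 was 1.25 in controls and 0.34 in Pcgf1-KO, beside -0.0045 and 0 over all genes. Between Pcgf1-KO and control ESCs 1 was higher, against 0.320% of all genes, and between Pcgf1-KO and control EBs limma called 0 of 9, with 1 at an unadjusted p under 0.05 and 1.95% of all genes called. The interaction of genotype and stage was called for 0 of 9, with 1 at an unadjusted p under 0.05 and 0.00486% of all genes called. Same-numbered libraries of this line deviated together, and blocking on replicate number gave 8, 6, 2, 2 and 1 of 9 in these 5 comparisons, against 43.9%, 36.8%, 5.31%, 10.4% and 1.62% of all genes. The block added Cdh1, which was lower in Pcgf1-KO than in control EBs (-0.29, adjusted p = 0.0114). This difference was -0.45 to -0.19 within the 3 series.

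**Figure D3:**
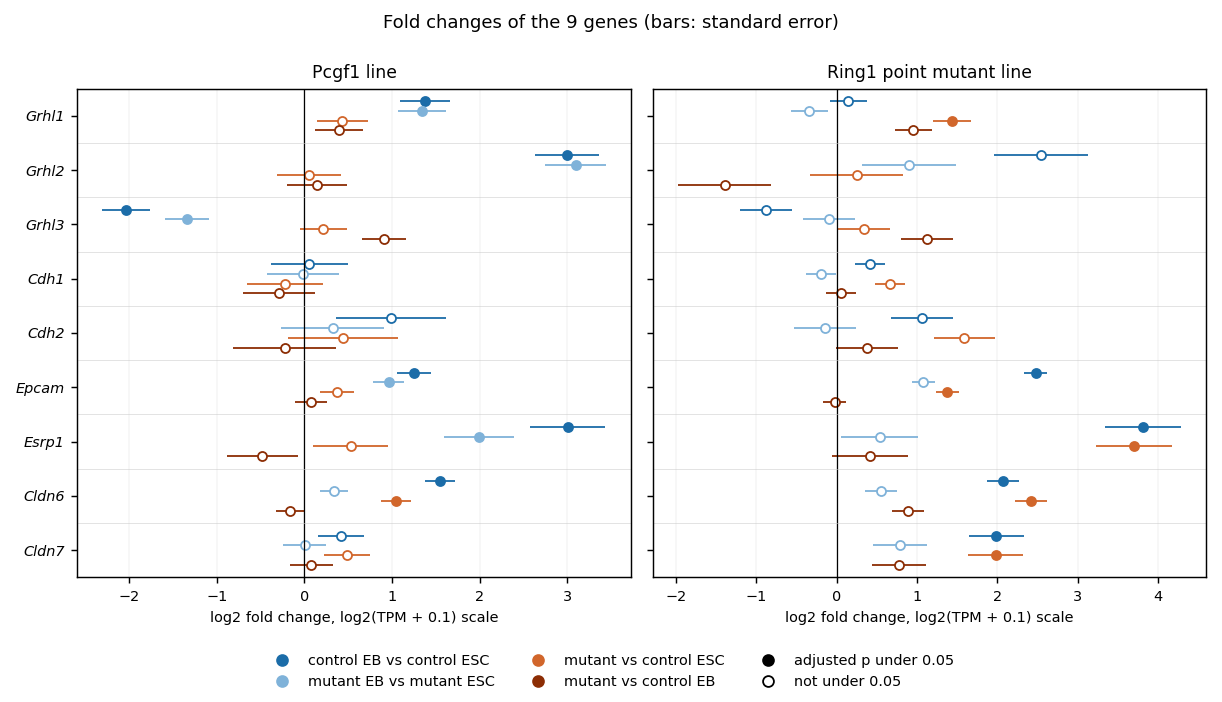
Log2 fold changes of the 9 genes (points) with standard errors (bars) in the Pcgf1 line (left) and the Ring1 point mutant line (right), for 4 comparisons. Filled points have an adjusted p under 0.05: in the left panel they are 6 genes in control EBs, 5 in Pcgf1-KO EBs and Cldn6 in Pcgf1-KO ESCs, and in the right panel 4 genes in control EBs and 5 in mutant ESCs.

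In the Ring1 point mutant line the junction genes rose in control EBs too, from lower levels in ESCs. Epcam was at 46.5 and 43.1 TPM in control ESCs and at 267 and 233 TPM in control EBs (log2 fold change 2.48 ± 0.14, adjusted p = 0.000960, limma over 20279 genes). Esrp1 went from 1.59 and 0.71 TPM to 22.7 and 11.7 TPM (3.81 ± 0.47, adjusted p = 0.00734). Cldn6 went from 11.7 and 9.66 TPM to 49.7 and 40.6 TPM (2.07 ± 0.20, adjusted p = 0.00283), and Cldn7 from 3.31 and 5.17 TPM to 20.2 and 13.8 TPM (1.99 ± 0.34, adjusted p = 0.0214). These 4 of 9 genes rose and 0 fell, against 2.73% of all genes higher and 4.73% called. Each group held 2 libraries, and the count of 4 became 1 without control EB replicate 1, 1 without control ESC replicate 2, 2 without control EB replicate 2 and 3 without control ESC replicate 1, with Epcam called in each.

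The Grainyhead genes of these controls were more variable. Grhl2 was at 4.96 and 1.87 TPM in control ESCs and at 31.5 and 10.6 TPM in control EBs, a difference of 2.54 ± 0.58 that missed the threshold (adjusted p = 0.0541). Grhl3 was at 16.3 and 20.4 TPM in the ESCs against 8.42 and 11.5 TPM in the EBs (-0.88 ± 0.32, adjusted p = 0.185), and Grhl1 at 3.75 and 3.59 TPM and at 4.43 and 3.74 TPM. Replicate 1 held more Grhl2 than replicate 2 in both control groups.

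4-OHT treated ESCs of this line had more of the junction and splicing genes than untreated ESCs. Cldn6 was at 50.2 and 64.7 TPM (2.41 ± 0.20 above control ESCs, 5.33-fold, adjusted p = 0.00714), Esrp1 at 12.3 and 18.5 TPM (3.70 ± 0.47, 13-fold, adjusted p = 0.0171) and Epcam at 105 and 129 TPM (1.38 ± 0.14, adjusted p = 0.0111). Cldn7 was at 12.7 and 21.6 TPM (1.98 ± 0.34, adjusted p = 0.0320) and Grhl1 at 10.4 and 9.81 TPM (1.44 ± 0.23, adjusted p = 0.0283). Both mutant libraries lay above both controls for each of these 5 genes, but also for Cdh1 and Cdh2, which were not called. The share of all genes that separate in this way was not computed. Grhl2, at 3.55 and 3.74 TPM, and Grhl3, at 19.3 and 27.8 TPM, overlapped the controls. Thus 5 of 9 genes were called higher, against 2.34% of all genes. The median over all genes in this comparison was itself 0.12 above 0, a shift that scaling by median ratios removed with the count at 5. The 5 calls rested on the full set of libraries, since leaving out any 1 of the 4 gave 0 of 9, and so did a fit of these 2 groups alone.

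**Figure D4:**
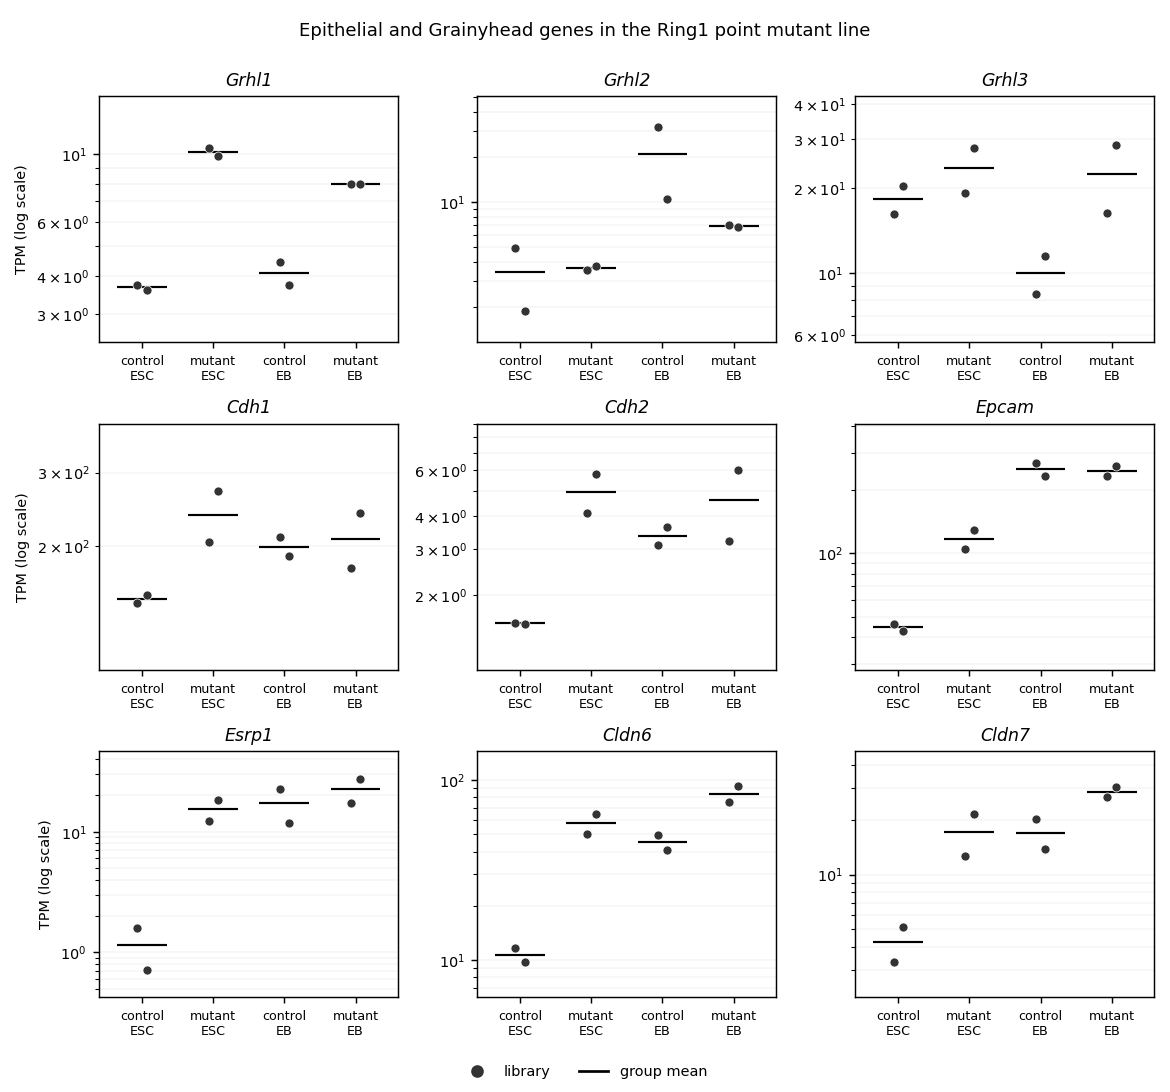
TPM (log axis) of the 9 genes in each of the 8 libraries of the Ring1 point mutant line, by group, with lines at group means. In mutant ESCs Grhl1, Cdh1, Cdh2, Epcam, Esrp1, Cldn6 and Cldn7 lie above control ESCs. In mutant EBs Grhl2 lies below control EBs, and Grhl1, Grhl3, Cldn6 and Cldn7 lie above them, but limma called 0 of the 9 genes there. Each group holds 2 libraries, and the share of all genes that separate in this way was not computed.

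In mutant EBs of this line none of the 9 genes passed against control EBs. Stage markers moved beside them: the 4 formative markers summed to 125 to 145 TPM in mutant EBs and 425 to 657 TPM in control EBs (3 called lower), and the 5 naive markers to 946 to 951 TPM and 586 to 633 TPM (2 called higher). Their part in the values below was not tested. Grhl2 was at 6.99 and 6.79 TPM, below both control EBs (-1.39 ± 0.58, adjusted p = 0.230). Grhl3 was at 16.4 and 28.6 TPM (1.13 ± 0.32 above control EBs, adjusted p = 0.0997) and Grhl1 at 7.98 and 7.96 TPM (0.95 ± 0.23, adjusted p = 0.0655). Grhl3 was 59.1% ± 9.7 (SD, n = 2) of the summed Grainyhead TPM in mutant EBs and 31.8% ± 18.1 in control EBs. In control EB replicate 2 it was the largest part too, at 44.6%. Cldn6 was at 75.6 and 92.1 TPM (0.89 ± 0.20, adjusted p = 0.0514), Cldn7 at 26.9 and 30.4 TPM, Esrp1 at 17.3 and 27.6 TPM and Epcam at 232 and 259 TPM. limma called 0 of 9 genes, with 4 at an unadjusted p under 0.05, while 4.53% of all genes were called. From mutant ESCs to mutant EBs it called 0 of 9 as well, with 2 at an unadjusted p under 0.05 and 0.133% of all genes called, and Epcam came nearest, at 1.07 ± 0.14 (adjusted p = 0.0567). The interaction of genotype and stage had a median of -1.21 over the 9 genes and was above 0 for Grhl3 alone. It was called for 0 of 9, with 4 at an unadjusted p under 0.05 and 0.00986% of all genes called.

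The cadherins of the point mutant line passed in no comparison, except that Cdh2 passed in mutant against control ESCs with the replicate number as a block (adjusted p = 0.0337). Cdh1 was at 146 and 153 TPM in control ESCs, 204 and 272 TPM in mutant ESCs (0.66 ± 0.19, adjusted p = 0.122), 210 and 189 TPM in control EBs and 177 and 240 TPM in mutant EBs. Cdh2 was at 1.57 and 1.55 TPM in control ESCs, 4.13 and 5.78 TPM in mutant ESCs (1.59 ± 0.38, adjusted p = 0.0803), 3.11 and 3.64 TPM in control EBs and 3.21 and 6.02 TPM in mutant EBs. The 8 MEF markers summed to 35.6 to 40 TPM in control and 60.1 to 65.3 TPM in mutant ESCs, and to 28.9 to 32.2 TPM in control and 65.3 to 68.8 TPM in mutant EBs. The 6 primitive endoderm markers summed to 5.70 to 6.78 TPM in control and 25.1 to 25.9 TPM in mutant ESCs (2 called higher), and to 13.8 to 19.4 and 34.0 to 37.0 TPM in EBs (2 called higher). The 4 mesoderm markers were at 1.33 to 3.43 and 6.47 to 7.55 TPM in ESCs (1 called higher) and 0.858 to 1.87 and 5.12 to 7.75 TPM in EBs (2 called higher). The 6 trophoblast markers overlapped in ESCs, at 38.5 to 52.5 and 36.3 to 61.8 TPM (1 called higher), and were at 15.7 to 25.8 and 45.1 to 76.1 TPM in EBs (2 called higher). Of the 8 feeder markers 0 were called in ESCs and 3 were called higher in EBs. Over all genes 2.34% were called higher in mutant ESCs, and 4.53% were called in either direction in mutant EBs. The part of these lists in the values of the 9 genes was not tested.

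Other genes of the epithelial program were called in both directions in control EBs of the Pcgf1 line, where 11.5% of all genes were higher and 13.4% lower. Of 22 other junction and polarity genes 3 rose and 5 fell, with a median of 0.14. The tight junction protein gene Cgn rose by 1.52 (log2, adjusted p = 0.00362), whereas the desmosomal genes Dsg2 and Dsp fell by 1.86 and 1.76. Of 13 other epithelial genes 4 rose and 5 fell, with a median of 0.33. Among those that fell were Elf3, an epithelial transcription factor (-3.16), and the keratin Krt19 (-3.00). Tfcp2l1, a relative of the Grainyhead factors that maintains naive pluripotency, fell by 5.08, from a mean of 472 to 14 TPM (adjusted p = 2.35e-08), and the other 2 CP2 genes did not pass. In Pcgf1-KO EBs 3 of the 22 rose and 2 fell, and 3 of the 13 rose and 6 fell. Over all genes 8.13% were higher and 10.2% lower there. In the ESC comparison 0 of the 22 and 1 of the 13, Krt8, were called (1.27, adjusted p = 0.00745), with 0.320% of all genes higher. In the EB comparison 1 of the 22 and 0 of the 13 were called, with 1.95% of all genes called.

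Of 6 transcription factors of epithelial to mesenchymal transition, 1 fell and 0 rose in control EBs, with 13.4% of all genes lower. The 1 that fell was Zeb1, a repressor of Cdh1 and Esrp1 (-1.61, adjusted p = 0.000464), and the list's median was -0.09. Of 5 mesenchymal genes Fn1 fell by 2.62, Vim fell by 1.47 and Mmp2 rose by 0.70. Fibroblasts express all 3, and the part of the feeder RNA named above in these values was not tested. In mutant ESCs of the point mutant line 1 of the 22 junction genes, 4 of the 13 epithelial genes and 1 of the 6 transcription factors rose and none of these fell, with 2.34% of all genes higher. In its mutant EBs 2 of the 22, 5 of the 13 and 2 of the 6 were called higher and none lower, with 4.53% of all genes called in either direction, and the 13 epithelial genes had a median of 0.99 beside 0.10 over all genes. The calls over all genes in both comparisons fell to 130 or fewer when any 1 library was left out, and these list counts were not recomputed without it.

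Over the 19 libraries of the Pcgf1 line the genes whose log2(TPM + 0.1) was most like that of Grhl2 among 13391 with a mean of at least 1 TPM included Usf1 (Pearson r = 0.99), Arhgef3 (0.99), Lrp2 (0.99) and Dnmt3a (0.98). Of the 9 genes Esrp1 was nearest (0.94), then Grhl1 (0.92), Epcam (0.77), Cldn6 (0.72), Cdh2 (0.54), Cdh1 (0.31), Cldn7 (-0.01) and Grhl3 (-0.82). These are descriptions over libraries that share stage and series.

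In the 4 lines with conflicting labels Grhl2 is given with both conditions. In the Ring1A/B line it was at 5.25 and 4.81 TPM in the libraries labelled and named control ESC, 19.2 and 17 TPM in those labelled mutant ESC and named control EB, 9.20 and 8.26 TPM in those labelled control EB and named mutant ESC, and 18 and 17.4 TPM in those labelled and named mutant EB. In the Pcgf2/4 line replicates 1 and 2 were at 2.60 and 33.2 TPM as labelled control ESC, 3.84 and 31.4 TPM as mutant ESC, 3.35 and 43.5 TPM as control EB and 2.98 and 50.7 TPM as mutant EB. In the Pcgf6 line they were at 1.46 and 11.6 TPM as labelled control ESC, 1.19 and 14.6 TPM as mutant ESC, 2.45 and 15.5 TPM as control EB and 2.48 and 21.5 TPM as mutant EB. In both lines every replicate 1 is named ESC and every replicate 2 EB. In the Pcgf3/5 line the libraries labelled control ESC were at 5.12 TPM (named mutant ESC) and 4.22 TPM (control ESC), those labelled mutant ESC at 4.65 TPM (control ESC) and 29.5 TPM (control EB), those labelled control EB at 28.5 TPM (control EB) and 30.9 TPM (mutant EB), and those labelled mutant EB at 26.2 TPM (mutant EB) and 5.91 TPM (mutant ESC). Over the 32 libraries Grhl2 spanned 1.19 to 9.20 TPM under ESC names and 11.6 to 50.7 TPM under EB names, but 1.19 to 33.2 and 2.45 to 50.7 TPM under ESC and EB labels. Epcam was separate by name as well, at up to 204 TPM under ESC names and from 284 to 521 TPM under EB names, whereas Esrp1 and Grhl3 overlapped under either.

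**Figure D5:**
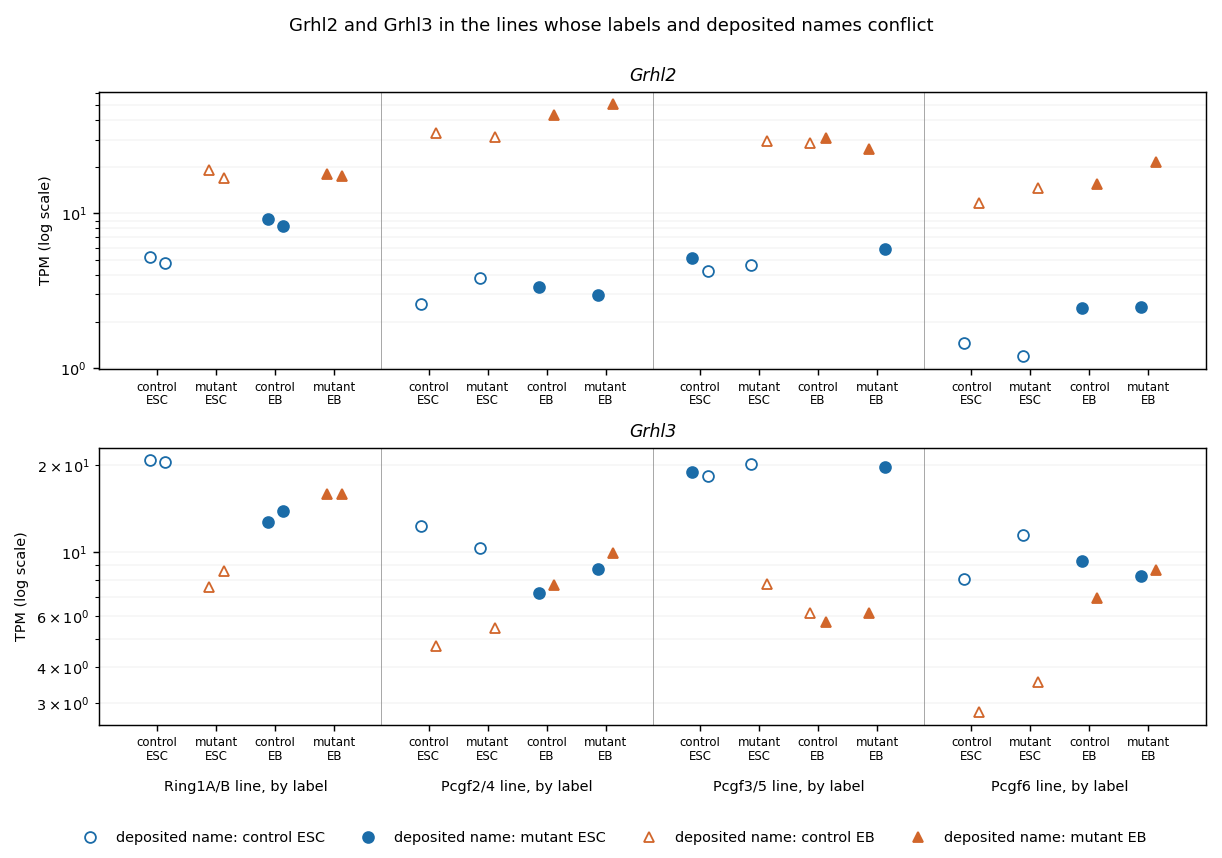
TPM (log axis) of Grhl2 (top) and Grhl3 (bottom) in the 32 libraries of the 4 lines whose labels and deposited names conflict, placed by label, with the marker giving the condition in the deposited name. Circles (named ESC) lie at or below 9.20 TPM and triangles (named EB) lie at 11.6 TPM or above for Grhl2, under all labels.

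In the 11 libraries where label and name gave the same condition, the 5 control ESC libraries held 1.46 to 5.25 TPM of Grhl2 (median 4.22), the 1 control EB library 28.5 TPM and the 5 mutant EB libraries 17.4 to 50.7 TPM (median 21.5). In these 3 groups Esrp1 was at 0.979 to 15.2, 51.7 and 23.6 to 56.2 TPM, and Epcam at 150 to 192, 492 and 284 to 521 TPM. In the control ESC and mutant EB libraries Grhl1 was at 2.17 to 4.09 and 4.90 to 10.7 TPM, and Cldn6 at 30.3 to 68.5 and 98.6 to 154 TPM. Grhl3 (8.09 to 20.8 and 6.14 to 15.9 TPM), Cdh1 (143 to 356 and 230 to 317 TPM), Cdh2 (0.577 to 1.86 and 0.684 to 6.02 TPM) and Cldn7 (17.1 to 51.6 and 19.1 to 83.8 TPM) overlapped. These groups mix lines, stage and genotype, and were not tested. The share of all genes that separate between them was not computed. By label alone, limma called 9, 7, 8 and 6 of the 9 genes in the Ring1A/B line (EB against ESC in control, then in mutant, and mutant against control in ESC, then in EB), with 43.2%, 56.5%, 48.8% and 33.3% of all genes called. By name, its libraries labelled mutant ESC are control EB and those labelled control EB are mutant ESC, so these comparisons differ by name. limma called 0 of 9 in each of these comparisons of the other 3 lines, with 0 to 4 at an unadjusted p under 0.05. In the other 3 lines 0% of all genes were called, except 0.0601% in control EBs, 0.0401% in mutant against control ESCs and 0.0301% in mutant against control EBs of the Pcgf3/5 line. Each labelled group of the Pcgf2/4 and Pcgf6 lines, and each mutant group of the Pcgf3/5 line, held libraries named for both stages. Their spread includes the named stages, so these counts cannot show whether the genes differ.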

How the data were processed

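RNA-seq libraries were made with the NEBNext Ultra II RNA kit. The authors aligned reads with STAR (version 2.5.2b) to mm9, per the submitters' processing notes, which also name DESeq2, and deposited 1 table of TPM per library. The step from counts to TPM is not given in the sources used here. TPM keep no depth, so no count test was run and no counting interval is given. No 2 libraries were identical.

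Libraries were grouped by sample label. Titles gave the replicate numbers. The 3 library series of the Pcgf1 line were inferred from the prefixes of library identifiers in the column headers. The titles do not say what separates these series. In 1 Pcgf1-KO EB library the characteristics give 5 where the title gives 4. In R 4.3.3, log2(TPM + 0.1) was fitted with limma 3.58.1 with a variance trend, 1 fit per line over its 4 groups, for genes detected (TPM above 0) in 1 or more of its libraries, and p-values were adjusted by Benjamini-Hochberg over all these genes (two-sided, called under 0.05). Adjusted p-values are from this fit. Same-numbered libraries of the Pcgf1 line, whose numbers come from the titles, had deviations from their group means correlated at r = 0.317 to 0.653 in every pair, so fits with the replicate number as a block are given where they change a call. The script was checked on simulated data. Alternatives were a pseudocount of 1, a mean TPM of at least 1, other scalings, blocks, fits of only the groups compared and leaving out libraries; leaving out the second library series and the crossed block were chosen after seeing the data. Tables and figures were made with Python 3.11.15, pandas 2.3.3 and matplotlib 3.10.9.

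The 9 genes and the gene lists were chosen with earlier results of these data known. All 9 genes are named, and of the other lists the called genes with the largest change in control EBs of the Pcgf1 line, at most 3 a list, plus Krt8, chosen after its values were seen. Some genes that this rule names are not reported here. Results of marker lists in that comparison, as higher and lower of those listed, were 2 and 5 of 8 for MEF feeders, 0 and 5 of 5 for naive ESCs, 4 and 0 of 4 for the formative state, 0 and 1 of 3 for pluripotency, 1 and 2 of 6 for primitive endoderm, 0 and 4 of 6 for trophoblast, 0 and 0 of 4 for mesoderm and 0 and 0 of 3 for surface ectoderm. Over all genes 11.5% were higher and 13.4% lower.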

Additional observations from a re-analysis of the deposited data

Results flagged for a closer look

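In the Pcgf1 line 36 groups of values (9 genes in 4 groups of 4 or 5 libraries) were searched for a library far from the rest. Such a library was found in 1 group. Chance flags about 1 in every 20 groups, so 1 among 36 is no more than chance gives. Epcam was at 240 TPM in Pcgf1-KO ESC replicate 1 and at 144 to 168 TPM in the other 4 libraries of that group. Replicate 1 was the only library of the first series in the group. The first-series library was the highest for Epcam in control ESCs too, at 188 TPM, but not in either EB group.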

How the results depend on the processing

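The counts of the 9 genes called were recomputed under each alternative. In the Pcgf1 line the count between Pcgf1-KO and control ESCs, 1, became 2 with the replicate block, 3 with a library series block (Cldn6, Cldn7 and Esrp1) and 0 without the second series. Between Pcgf1-KO and control EBs, 0 became 2 with the replicate block, 2 with the series block, 1 with quantile normalization (Grhl3) and 1 without the second series (Cdh1), and 0 to 1 when a library was left out. The interaction count of 0 became 1 with the replicate block, 1 with quantile normalization and 2 with the series block (Cldn6 and Esrp1). The replicate block changed no other call of this line than those given with the results. In the Ring1 point mutant line, where the 2 pairs share only a number (r = 0.258 to 0.381), the block gave 6 in control EBs (Grhl2 and Grhl3 added), 1 in mutant EBs (Epcam), 6 in mutant ESCs (Cdh2 added), 3 in mutant against control EBs (Grhl1, Grhl3 and Cldn6) and 0 for the interaction. From mutant ESCs to EBs the count of 0 was also 1 with a mean TPM of at least 1 and 1 with quantile normalization. Between mutant and control ESCs, 5 became 3 with quantile normalization, 0 with only the groups compared and 0 to 0 when a library was left out. Between mutant and control EBs, 0 became 2 with a mean TPM of at least 1 and 1 with quantile normalization. Leaving out a library gave 1 to 3 in control EBs. With 1 library left in a group, it is assumed to vary like the others. Grhl2 in control EBs passed with a mean TPM of at least 1 (adjusted p = 0.0271). In the Pcgf3/5 line each mutant group holds a library named ESC and a library named EB. Its same-numbered libraries deviated in opposite directions (r = -0.79 to -0.071), and crossing the pairs gave 0 of 9 in its 4 comparisons. The cause of these changes was not tested.

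Directions turned only for values that had not passed. By setting, in the Pcgf1 line these were Cdh1 in control EBs (-0.025, quantile), Cdh1 in Pcgf1-KO EBs (0.036 with median ratios and 0.0024 without the second series), Cdh2 in Pcgf1-KO EBs (-0.35) and Grhl2 in Pcgf1-KO ESCs (-0.090), both without the second series, and the interactions of Grhl1 (0.032, pseudocount 1) and Grhl2 (-0.020 with the replicate and -0.011 with the series block). In the point mutant line they were Grhl1 in control EBs (-0.021) and Grhl2 in mutant ESCs (-0.24), both with quantile normalization, and Cdh1 in mutant against control EBs (-0.081, median ratios). With a library left out, ranges that crossed 0 in the Pcgf1 line were, in control EBs, Cdh1 -0.15 to 0.28, in Pcgf1-KO EBs against ESCs, Cdh1 -0.24 to 0.19, Cdh2 -0.059 to 0.63 and Cldn7 -0.084 to 0.15, in Pcgf1-KO against control ESCs, Grhl2 -0.11 to 0.19 and Cdh1 -0.43 to 0.0061, in Pcgf1-KO against control EBs, Grhl2 -0.058 to 0.34, Cdh2 -0.61 to 0.11, Epcam -0.018 to 0.14 and Cldn7 -0.053 to 0.22, and for the interaction, Grhl1 -0.18 to 0.13, Grhl2 -0.11 to 0.28 and Cdh1 -0.30 to 0.14. In the point mutant line they were, in mutant EBs against ESCs, Grhl3 -0.50 to 0.30, Cdh1 -0.41 to 0.025 and Cdh2 -0.59 to 0.29, in mutant against control ESCs, Grhl2 -0.43 to 0.93, and in mutant against control EBs, Cdh1 -0.17 to 0.27, Cdh2 -0.065 to 0.82, Epcam -0.12 to 0.073 and Esrp1 -0.057 to 0.89. Of 864 values under alternatives in the Pcgf1 line 783 kept direction and call, and of 477 in the point mutant line 412.

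Counts over all genes moved further. In the Pcgf1 line 5138 called in control EBs became 9050 with the replicate block, 3770 in Pcgf1-KO EBs became 7573, 132 between ESCs became 1094 (12 without the second series), 402 between EBs became 2143 (68 with only the groups compared) and 1 for the interaction became 333. In the point mutant line 960 in control EBs became 464 with only the groups compared, 27 in mutant EBs became 0, 515 between ESCs became 0 and 918 between EBs became 169. Leaving out a library gave 156 to 197, 39 to 78, 30 to 52 and 33 to 130 in these 4 comparisons. Of the last 918, 83.1% were higher in mutants, and 68.3% with median ratios or 61.7% with quantile normalization. Of 515 between ESCs 92.2% were higher, and 80.7% with quantile normalization. The balance turned without control ESC replicate 1 (48.57% of 35) or 2 (26.67% of 30), and for EBs without control EB replicate 1 (30.3% of 33) or 2 (49.12% of 57). Of the 402 between EBs of the Pcgf1 line 55.2% were higher, 66.7% with quantile normalization and 39.11% of 496 without the second series. The 132 between its ESCs became 34 to 184 and the 402 between its EBs 211 to 483 when a library was left out.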
